A study of Mus musculus with 6 samples.

Results

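Synaptic vesicle genes of 2 kinds, the subunits of the vacuolar H+-ATPase (V-ATPase) and the proteins that carry out release, were followed across the cell types of the mouse cerebellum. The genes were chosen by symbol alone from the 32286 genes of the count tables. They were the V-ATPase genes (*Atp6v0*, *Atp6v1*, *Atp6ap1* and *Atp6ap2*), the numbered synaptotagmins, the SV2 proteins, the synapsins and the VAMPs, 56 genes in all. Of these, 25 carry V-ATPase symbols (9 of the V0 sector, 14 of the V1 sector and 2 accessory subunits) and 31 encode vesicle proteins (17 synaptotagmins, 3 SV2 proteins, 3 synapsins and 8 VAMPs). *Atp6v1fnb*, a neighbour of *Atp6v1f* on chromosome 6, was counted with the V1 sector by its symbol alone and is not taken to encode a subunit. Between 52 and 55 of them had at least 1 unique molecular identifier (UMI, 1 captured transcript) in a mouse.

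Single nuclei RNA sequencing was done on whole cerebella of 3 *Pcp2-ATXN1[82Q]* mice (SCA1 mice) and 3 wild-type C57Bl6 littermates (WT mice), all 12 weeks old, with 1 library per mouse. The transgene is human *ATXN1* with an expanded CAG repeat, driven by the *Pcp2* promoter in Purkinje cells (PCs), so that every other cell type of an SCA1 mouse surrounds affected PCs without being meant to carry it. The nuclei had been annotated by the study with SingleR labels, and UMIs were summed per mouse and label. Human *ATXN1* gave 12, 15 and 19 UMIs in the PC nuclei of SCA1 mice 1 to 3 and 0 UMIs in those of each WT mouse. Over all nuclei it gave 57 to 60 UMIs in an SCA1 mouse and 15 to 37 UMIs in a WT mouse. Whether those outside PCs hold reads shared with mouse *Atxn1* was not tested.

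The libraries held 3354 to 10897 nuclei and 18916647 to 98366627 UMIs, and WT mouse 2 was the shallowest, with a median of 2246.5 UMIs per nucleus against 7253 in the deepest. Of 45219 distinct barcodes, 254 occurred in more than 1 library. Of 24 labels, 13 had at least 10 nuclei in every mouse and were compared. They are granule neurons (37532 nuclei), PCs (292 nuclei, 29 to 76 per mouse), 7 other neuronal labels named here by their last part (Pvalb-Nefh, Pvalb-Rab3b, Pvalb-Cadm1, Pvalb-Chrm2, Lgi2, Slc17a6.Nrgn and Slc17a6.Sln), oligodendrocytes (OL), Dcn.Nnat and a pair of astrocyte labels. The names Bergmann glia (BG) for Astrocyte.Gja.Slc1a3 and velate astrocytes (VA) for Gja1.Htra1 are given here and are not in the labels. One marker of each of 5 types is given as an example, with *Gabra6* at 737 UMIs per 1000000 (CPM) in granule neurons, *Car8* at 2495 CPM in PCs, *Slc1a3* at 3634 CPM in BG, *Aqp4* at 1151 CPM in VA and *Mog* at 730 CPM in OL. In BG the summed level of 5 Bergmann markers was 5296 to 7683 CPM and that of 5 velate astrocyte markers 357 to 760 CPM. In VA the Bergmann markers summed to 1870 to 2350 CPM, above the 1518 to 2005 CPM of the velate astrocyte markers, so the name VA rests on less. The Dcn.Nnat label names endothelial tip cells, but *Dcn* stood at 374 CPM there against 95 CPM for the endothelial gene *Flt1*. The Pvalb-Rab3b label was the most frequent label of its cluster for 0% of its nuclei, the Pvalb-Chrm2 label for 14.4% and the Lgi2 label for 47.9%, so these 3 are less well set apart.

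The V-ATPase is a rotary proton pump. Its V1 sector hydrolyses ATP on the cytoplasmic side, its V0 sector carries protons across the membrane, and the gradient drives transmitter into synaptic vesicles and acidifies endosomes and lysosomes, which every cell needs. Synaptotagmins bind calcium or lipid and time membrane fusion, SV2 proteins are transporter-like glycoproteins of the vesicle membrane, synapsins hold vesicles in clusters, and VAMPs are the vesicle-side SNAREs.

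The start regions of 5 of these genes are shown because they bear the contrasts described below. *Atp6v0b* and *Atp6v1a* are V-ATPase genes with similar levels in most cell types, whereas *Sv2b*, *Sv2c* and *Syt10* each had one type far above the rest of the 13 compared. Each sequence is the 250 bases before the most upstream RefSeq start, GRCm38.p6, minus strand, written 5′ to 3′. They lie at chr4:117887330-117887579 (*Atp6v0b*), chr16:44139260-44139509 (*Atp6v1a*), chr7:75309263-75309512 (*Sv2b*), chr13:96132578-96132827 (*Sv2c*) and chr15:89841861-89842110 (*Syt10*). Capitals mark the E-box CACGTG and its longer form TCACGTGA, known as the motif of TFEB, a regulator of lysosomal genes.
Atp6v0b: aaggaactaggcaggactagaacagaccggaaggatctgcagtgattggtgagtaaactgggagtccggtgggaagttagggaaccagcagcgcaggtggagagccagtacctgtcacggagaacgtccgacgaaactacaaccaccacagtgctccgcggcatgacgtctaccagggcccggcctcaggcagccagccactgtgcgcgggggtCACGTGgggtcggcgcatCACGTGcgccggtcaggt
Atp6v1a: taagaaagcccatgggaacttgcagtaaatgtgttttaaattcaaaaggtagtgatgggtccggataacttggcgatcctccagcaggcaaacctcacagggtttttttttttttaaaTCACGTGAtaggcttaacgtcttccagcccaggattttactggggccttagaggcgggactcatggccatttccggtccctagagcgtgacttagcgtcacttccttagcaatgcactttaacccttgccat
Sv2b: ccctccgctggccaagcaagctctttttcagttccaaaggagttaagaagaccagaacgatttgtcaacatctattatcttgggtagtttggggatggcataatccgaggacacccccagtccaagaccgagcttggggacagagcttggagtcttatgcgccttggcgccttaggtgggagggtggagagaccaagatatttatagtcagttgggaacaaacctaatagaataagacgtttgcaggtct
Sv2c: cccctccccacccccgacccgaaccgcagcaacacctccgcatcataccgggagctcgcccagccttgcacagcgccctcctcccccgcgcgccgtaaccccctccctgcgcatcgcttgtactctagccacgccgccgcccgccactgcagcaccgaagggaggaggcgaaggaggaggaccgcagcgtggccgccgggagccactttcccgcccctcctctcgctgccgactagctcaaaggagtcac
Syt10: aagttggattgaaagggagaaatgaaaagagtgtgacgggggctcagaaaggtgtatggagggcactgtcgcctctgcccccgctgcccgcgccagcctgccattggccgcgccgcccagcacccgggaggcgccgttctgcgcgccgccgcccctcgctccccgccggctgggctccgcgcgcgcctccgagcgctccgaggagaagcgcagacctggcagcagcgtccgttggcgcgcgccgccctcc
The *Atp6v0b* window held CACGTG at 36 and at 18 bases before the start, and the *Atp6v1a* window held TCACGTGA from 132 bases before it. Both motifs are palindromes and read the same on either strand, and TCACGTGA contains CACGTG. With the first 50 bases after the start included, TCACGTGA was found in 3 of 19 V-ATPase genes with a promoter window (*Atp6v0d1*, *Atp6v0e* and *Atp6v1a*), in 0 of 21 vesicle protein genes and in 1.12% of 27025 genes. The shorter CACGTG was found in 4 of 19 V-ATPase genes, 4 of 21 vesicle protein genes and 8.09% of all genes, counting every window of a gene, and *Sv2b* held it in a window other than the one shown. The cAMP response element TGACGTCA was found in *Syn1* alone among the 40 genes with a window, and in 2.03% of all. The windows of *Sv2c* and *Syt10* held 32 and 35 CpG dinucleotides in 300 bases, that of *Sv2b* held 10, and the median over all windows was 7. These matches describe the letters of the windows, not the binding of a factor.

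The synaptotagmins, SV2 proteins and synapsins differed far more between cell types than the V-ATPase genes did, while the median VAMP was close to the V-ATPase genes. Levels are CPM of the sum of a mouse and a cell type, given as mean ± SD over the 6 mice. Because introns were counted and long genes gather more UMIs, levels are compared between cell types and not between genes. The labels were made from the expression of the same nuclei, so cell types are described here without a test. Of the 56 genes, 47 reached a mean of 10 CPM in at least 1 cell type, and 34 of those 47 (72.3%) were highest in 1 of the 9 neuronal types, against 51.5% of the 13702 genes at that level. Another 7 were highest in a glial type (14.9%, against 24.3% of all genes) and 6 in Dcn.Nnat. The 9 genes below 10 CPM were *Atp6v0d2*, *Atp6v1b1*, *Atp6v1c2*, *Atp6v1e2*, *Atp6v1fnb*, *Atp6v1g3*, *Syt8*, *Syt15* and *Vamp9*, with between 1 UMI (*Atp6v1g3*) and 792 UMIs (*Vamp9*) in all nuclei. The level in the highest cell type was 2.29 times that in the lowest in the median V-ATPase gene, from 1.51 to 15.1 times over 19 genes. In the median vesicle protein gene it was 13.2 times, from 2.56 to 331 times over 27 genes, and in the median of all genes at that level 4.54 times. *Syt17* was left out of this range because it was at 0 CPM in its lowest type. In the median of all genes such genes were kept, as the largest ratios. The ratio of 331 was that of *Vamp5*, over a mean of 0.219 CPM in Pvalb-Cadm1, so the upper end of the range rests on very few UMIs. By family, also without *Syt17*, the median was 21.7 times for the synaptotagmins, 20.7 for the SV2 proteins, 17.2 for the synapsins and 2.91 for the VAMPs. The highest type lay apart from all 12 others, with no mouse in common, for 6 of the 47 genes (12.8%, against 13.6% of all genes). These were *Sv2b*, *Sv2c*, *Syt10*, *Syt12*, *Syt16* and *Vamp5*, all of them vesicle protein genes.

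**Figure D1:**
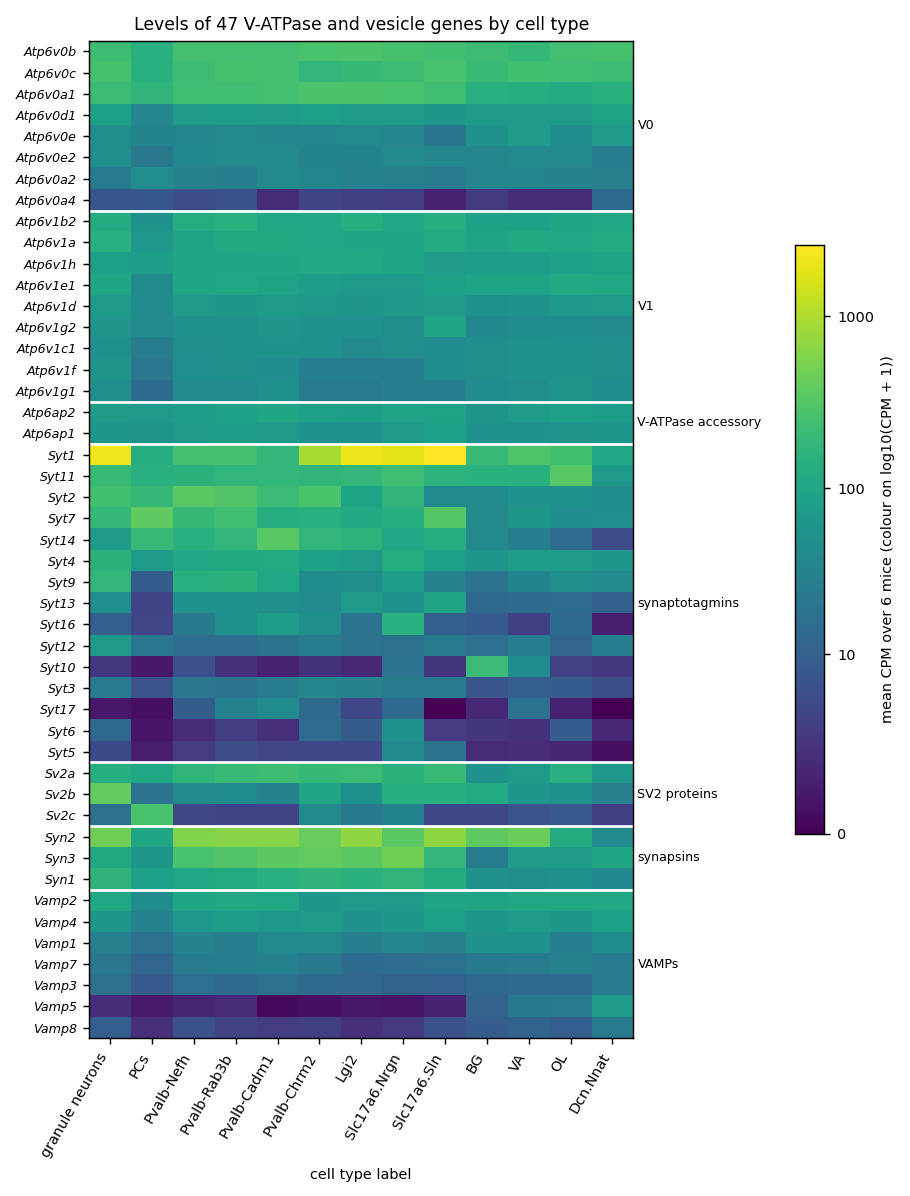
Mean CPM over 6 mice of the 47 genes that reached 10 CPM (rows, grouped by role) in each of 13 cell type labels (columns), coloured on a log10(CPM + 1) scale. Most V-ATPase rows are even in colour apart from darker fields in PCs, while single fields of *Syt1*, *Syt10*, *Sv2c*, *Sv2b* and *Vamp5* are far brighter than the rest of their row. Less even V-ATPase rows are *Atp6v0a4* (14.6 CPM in Dcn.Nnat to 0.967 CPM in Slc17a6.Sln) and *Atp6v0e* (72.7 CPM in VA to 20.1 CPM in Slc17a6.Sln).

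The SV2 genes were highest in different cell types. *Sv2c* (chromosome 13, 95954594 to 96132577) was highest in PCs, at 271 ± 88.6 CPM. Its levels in PCs were 248.6, 260.0 and 379 CPM in SCA1 mice 1 to 3 and 135, 245 and 359 CPM in WT mice 1 to 3. The lowest PC value was still above the highest value of any other type, which was 87.9 CPM in Pvalb-Chrm2 of SCA1 mouse 2. The mean was 40.8 ± 26.8 CPM in Pvalb-Chrm2, 33.5 ± 13.4 CPM in Slc17a6.Nrgn, 22.7 ± 24.8 CPM in Lgi2 and 17.2 ± 4.31 CPM in granule neurons, and these neighbours overlapped. In each of the other 8 types the mean was under 8 CPM. The same-strand gene *Gm20075* overlaps *Sv2c*, and reads in the shared stretch could belong to either.

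*Sv2b* (chromosome 7, 75114894 to 75309262) had granule neurons highest and PCs lowest, the reverse of *Sv2c* for these 2 types. In granule neurons it stood at 369, 299.6 and 456 CPM in the SCA1 mice and at 364, 377 and 462 CPM in the WT mice, a mean of 388 ± 61.6 CPM. In PCs it stood at 24.1, 14.8 and 7.44 CPM in the SCA1 mice and at 44.1, 4.82 and 17.1 CPM in the WT mice. All granule neuron values were above all PC values and above those of every other type. Of the 143 *Sv2b* UMIs in PC nuclei of WT mouse 1, 42 lay in 1 nucleus, and of the 19 in WT mouse 3, 18 did. After granule neurons came Slc17a6.Sln at 141 CPM, Slc17a6.Nrgn at 135 ± 31.0 CPM, BG at 121 ± 24.2 CPM and Pvalb-Chrm2 at 102 ± 57.5 CPM, all overlapping their neighbours. *Sv2a*, the SV2 protein bound by levetiracetam, varied least, from 223 ± 70.8 CPM in Pvalb-Cadm1 to 54.7 ± 37.9 CPM in BG, and every neighbour in its order overlapped.

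**Figure D2:**
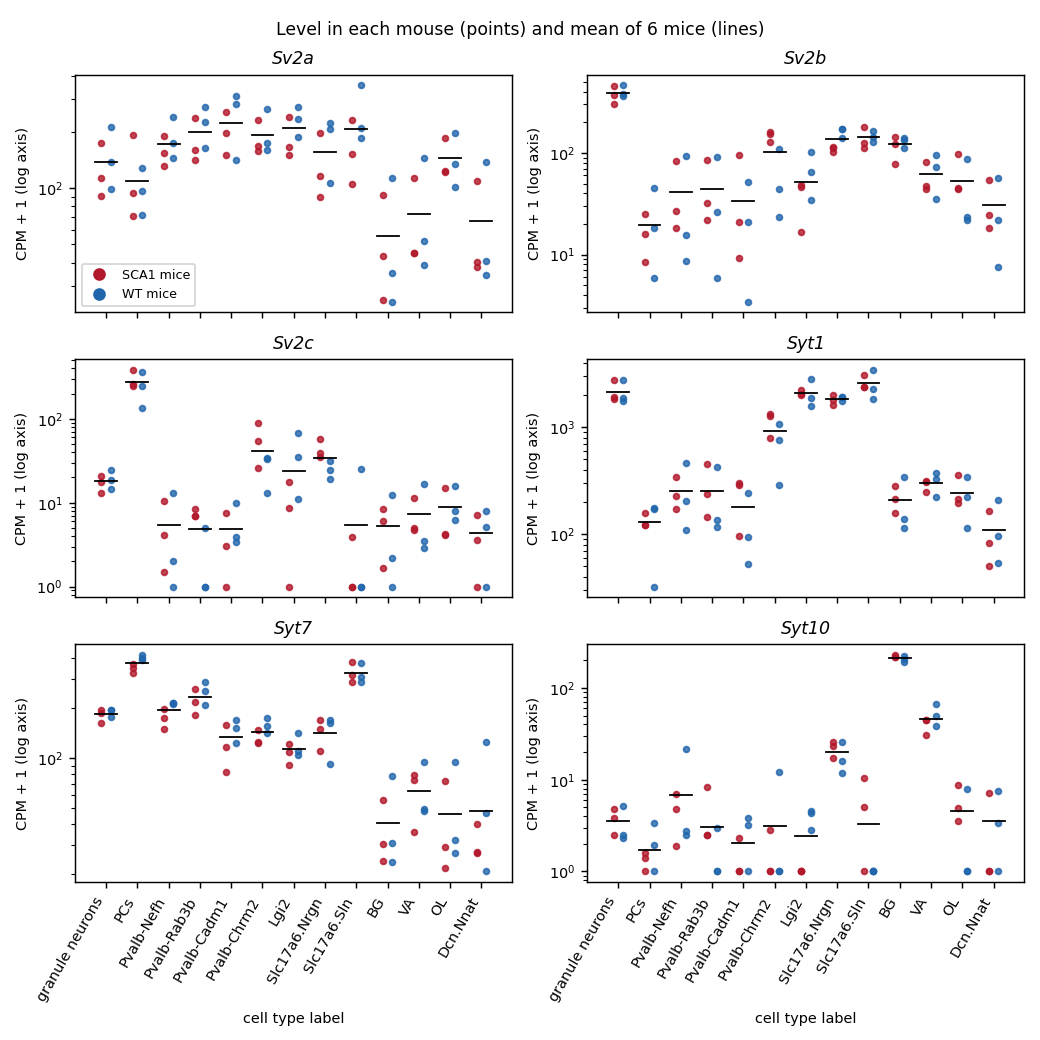
CPM + 1 (log axis) of 6 vesicle protein genes in each mouse (points, SCA1 red and WT blue) and the mean of 6 mice (lines) in 13 cell type labels. *Sv2c* and *Syt7* are highest in PCs (271 and 374 CPM), *Sv2b* in granule neurons (388 CPM) and *Syt10* in BG (213 CPM), and *Syt1* is 129 CPM in PCs against 2157 CPM in granule neurons.

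The synaptotagmins divided the cell types in several ways. *Syt1*, the fast calcium sensor of release, was high in Slc17a6.Sln (2578 ± 575 CPM), granule neurons (2157 ± 480.2 CPM), Lgi2 (2092 ± 418 CPM) and Slc17a6.Nrgn (1845 ± 145 CPM), 4 types whose ranges overlapped. Pvalb-Chrm2 followed at 917 ± 390 CPM, and the other 8 types were at or below 298.6 CPM. In PCs, *Syt1* stood at 157, 121 and 120.2 CPM in the SCA1 mice and at 170.3, 31.3 and 175 CPM in the WT mice. In the WT mice much of this lay in single nuclei, which held 222 of 552, 16 of 26 and 159 of 195 *Syt1* UMIs of mice 1 to 3. In the SCA1 mice the leading nucleus held 51 of 396, 29 of 131 and 76 of 210. *Syt2*, a close relative that serves as the sensor of many fast inhibitory synapses, was highest in Pvalb-Nefh (341 ± 43.8 CPM), followed by Pvalb-Rab3b (306 CPM), Pvalb-Chrm2 (278 CPM) and granule neurons (241 CPM), and it stood at 185 CPM in PCs and 40.7 CPM in Slc17a6.Sln.

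*Syt7*, the slow, high-affinity sensor, was highest in PCs. Its levels there were 348, 325 and 369 CPM in the SCA1 mice and 401, 416 and 388 CPM in the WT mice. Slc17a6.Sln came next at 324 ± 40.8 CPM and overlapped PCs, and both lay apart from Pvalb-Rab3b at 234 CPM. *Syt14*, a synaptotagmin that does not bind calcium, was also high in PCs (197 ± 37.4 CPM) beside Pvalb-Cadm1 (329 ± 72.1 CPM), and stood at 74.5 CPM in granule neurons. Its ratio to granule neurons was 2.65 in PCs, and close to that in Pvalb-Rab3b (2.36), Pvalb-Chrm2 (2.35), Lgi2 (2.12) and Pvalb-Nefh (1.98). *Syt9* was higher in granule neurons than in PCs, with 181 ± 34.5 CPM in granule neurons and 9.21 ± 5.19 CPM in PCs, where 1 nucleus held all 10 *Syt9* UMIs of WT mouse 3 and 29 of the 58 of WT mouse 1.

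*Syt10*, a calcium sensor known from secretion of IGF-1, was highest in BG among the 13 types compared. In BG it stood at 214, 219 and 226 CPM in the SCA1 mice and at 206, 223 and 192 CPM in the WT mice. In VA it stood at 29.6, 44.0 and 43.8 CPM in the SCA1 mice and at 38.0, 48.3 and 65.8 CPM in the WT mice, below every BG value and above every value of Slc17a6.Nrgn, where the mean was 18.9 ± 5.67 CPM. In the 10 types below that the mean was under 6 CPM, with 7 UMIs in all PC nuclei. *Syt11*, which lacks calcium binding and acts in endocytosis, was highest in OL (329 ± 72.3 CPM), followed by Slc17a6.Nrgn at 229 CPM.

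Another 3 synaptotagmins, of lower level, were highest in Slc17a6.Nrgn. *Syt16* stood at 144 ± 25.9 CPM there against 77.1 ± 9.10 CPM in Pvalb-Cadm1, with no mouse in common. *Syt6* stood at 53.0 ± 28.3 CPM against 15.8 CPM in Pvalb-Chrm2, but its 10.9 CPM in WT mouse 2, which had 22 nuclei of this label, overlapped the other types. *Syt5* stood at 42.2 ± 15.7 CPM against 18.2 CPM in Slc17a6.Sln. *Syt12* was highest in granule neurons, at 69.3 ± 4.88 CPM, apart from Dcn.Nnat at 28.9 CPM.

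*Syn2*, the synapsin whose astrocyte levels came nearest to those of granule neurons, stood at 703 ± 175 CPM in Lgi2 and 700 ± 93.7 CPM in Slc17a6.Sln. In VA (440 ± 39.7 CPM) and BG (369 ± 27.7 CPM) it was close to granule neurons (466 ± 23.1 CPM) and above PCs (99.4 ± 25.5 CPM) in every mouse. Its ratio to granule neurons was 0.946 in VA, 0.793 in BG and 0.270 in OL, beside 0.121 to 0.429 (VA), 0.0963 to 0.346 (BG) and 0.119 to 0.419 (OL) for 5 granule neuron markers. The same-strand gene *Gm17482* overlaps *Syn2*. *Syn1* ranged from 168 ± 18.8 CPM in Slc17a6.Nrgn and 164 CPM in granule neurons to 54.6 CPM in BG and 38.7 CPM in Dcn.Nnat. *Syn3* ranged from 472 ± 165 CPM in Slc17a6.Nrgn to 26.2 CPM in BG.

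Among the VAMPs, *Vamp5* and *Vamp8*, which serve membranes outside the synapse, were highest in Dcn.Nnat of the types compared. *Vamp5* stood there at 69.6, 39.4 and 49.7 CPM in the SCA1 mice and at 124, 39.5 and 113 CPM in the WT mice, above all values of OL (mean 25.3 CPM), VA (23.3 CPM), BG (11.3 CPM) and PCs (0.783 CPM). *Vamp8* stood at 24.8 ± 11.9 CPM in Dcn.Nnat against 11.5 CPM in VA. *Vamp1* was at 53.8 ± 12.1 CPM in BG and 53.8 ± 15.5 CPM in VA, and at 29.2 CPM in granule neurons. *Vamp2*, the main SNARE of synaptic vesicles, ranged only from 114 CPM in Pvalb-Rab3b to 43.2 CPM in PCs, and *Vamp4* from 88.4 CPM in Dcn.Nnat to 31.5 CPM in PCs.

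V-ATPase subunits were spread more evenly, and 11 of 19 were lowest in PCs, where most genes were low in CPM. Over all 13702 genes at 10 CPM in some type the median ratio of PCs to granule neurons was 0.669, and 28.5% stood above granule neurons, against a median of 0.599 for the V-ATPase genes. *Atp6v0a1*, the V0 a subunit typical of neurons, ranged from 283 ± 39.8 CPM in Pvalb-Chrm2 to 121 ± 24.2 CPM in OL, and the 9 neuronal types were above the other 4 in their means. *Atp6v0b* ranged from 284 ± 122.8 CPM in Lgi2 to 145 ± 60.4 CPM in PCs. *Atp6v0c*, the proteolipid of the rotor ring, ranged from 267 ± 224 CPM in Slc17a6.Sln to 146 ± 114 CPM in PCs, with the mice of 1 type further apart than the types.

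In the V1 sector, *Atp6v1a*, the catalytic subunit, ranged from 147 ± 42.7 CPM in granule neurons to 64.2 ± 15.7 CPM in PCs, and *Atp6v1b2* from 147 ± 29.8 CPM in Pvalb-Rab3b to 53.4 ± 18.7 CPM in PCs. *Atp6v1h*, the regulatory H subunit, ranged from 115 CPM in Pvalb-Chrm2 to 75.9 CPM in Slc17a6.Sln, a ratio of 1.51 that was the smallest of the 19. The accessory genes *Atp6ap1* (84.3 to 51.4 CPM) and *Atp6ap2* (100.9 to 58.1 CPM) followed, with ratios of 1.64 and 1.74. Lowest in PCs were 10 of the 28 vesicle protein genes too. Together with the V-ATPase genes these were 44.7% of the 47 genes, and 39.2% of all genes at that level were lowest in PCs. *Atp6v0a2*, the a subunit of Golgi and endosomes, was the V-ATPase gene that was highest in PCs, at 45.5 ± 5.26 CPM. Pvalb-Cadm1 came next at 38.9 CPM, and PCs did not lie apart from all other types. Granule neurons were the lowest type, at 25.5 ± 5.16 CPM. *Atp6v1b1*, the B subunit of kidney and inner ear, was below 10 CPM everywhere, but 56 of its 111 UMIs came from PC nuclei (6.36 ± 4.41 CPM).

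Free RNA from lysed cells reaches every droplet, and most nuclei here were granule neurons, so levels in other types were set beside those of 5 granule neuron markers. Levels were divided by those in granule neurons of the same mouse, for the 18 V-ATPase and 23 vesicle protein genes with at least 10 CPM there. In PCs, whose nuclei were the deepest (median 36466.5 UMIs), the median ratio was 0.594 for V-ATPase genes, from 0.310 (*Atp6v1g1*) to 1.82 (*Atp6v0a2*), against 0.0389 to 0.100 for the granule neuron markers. The median was 0.815 in BG, 0.855 in VA and 0.939 in OL. The markers had ratios of 0.0963 to 0.346, 0.121 to 0.429 and 0.119 to 0.419 in these 3 types. All 5 markers were exceeded in every mouse by 18 of the 18 V-ATPase genes in PCs and in BG, and by 17 in VA and in OL.

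Among these 23 vesicle protein genes the ratios in glia were lower. Their median ratio to granule neurons was 0.322 in BG, 0.386 in VA, 0.427 in OL, 0.233 in Dcn.Nnat and 0.471 in PCs, and between 0.884 and 1.03 in the 7 other neuronal types. The requirement of 10 CPM in granule neurons removes genes that are high elsewhere, such as *Syt10* and *Vamp5*. Over all 28 vesicle protein genes with 10 CPM in any type, the median ratio of the means was 0.245 in Dcn.Nnat, 0.396 in BG, 0.447 in VA, 0.465 in PCs and 0.556 in OL, against 1.09, 0.899, 0.969, 0.669 and 0.971 over the 13702 genes at that level. Of these 28 genes 5 stood above granule neurons by their means in BG (41.9% of all genes did), 8 in VA (47.3%) and 8 in OL (46.9%). All 5 granule neuron markers were exceeded in every mouse by 17 of the 23 genes in PCs, 8 in OL, 7 in BG and 6 in VA. These markers stand for granule neuron RNA alone, and other cells shed RNA too. In BG, 6 PC markers summed to 216 to 2108 CPM over the mice. The part of free RNA was therefore not tested for any V-ATPase or vesicle protein gene, whether above the markers or not.

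**Figure D3:**
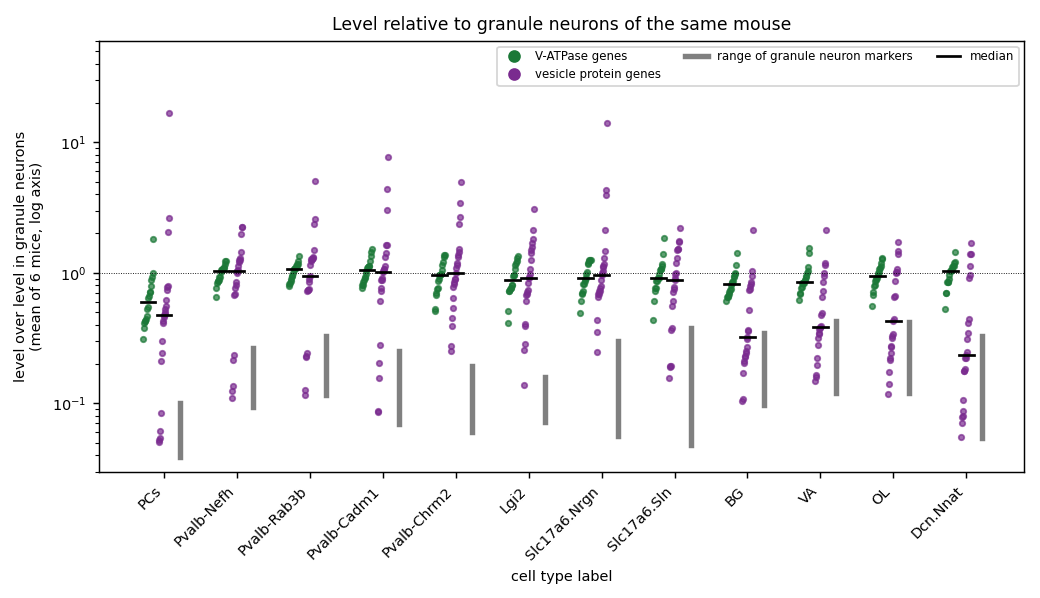
Level in a cell type over the level in granule neurons, as the mean of 6 mice (log axis), for 18 V-ATPase genes (green), 23 vesicle protein genes (purple) and the range of 5 granule neuron markers (grey bars). Black lines are medians. V-ATPase medians lie between 0.815 and 1.07 except in PCs (0.594), and vesicle protein medians are 0.233 to 0.471 in glia, Dcn.Nnat and PCs. In PCs the median over all genes was also low (0.669).

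To ask whether mutant *ATXN1* in PCs altered these genes, SCA1 and WT mice were compared within each cell type with edgeR's quasi-likelihood test on the sums, with batch as a term and Benjamini-Hochberg adjustment over all genes tested. No member passed an adjusted p of 0.05 in any of the 13 types, and DESeq2 on the same sums also called 0 members in each. In PCs 0 of 39 genes tested were called, and 0% of all 9821 genes were. At an unadjusted p under 0.05 there was 1 of 39, against 6.65% of all genes, and DESeq2 called 0.672% of all genes. In granule neurons 0 of 48 were called, against 0.00566% of 17656 genes, with 1 of 48 at an unadjusted p under 0.05 (1.77% of all genes). The remaining 17 genes in PCs and 8 in granule neurons had too few UMIs to be tested.

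In PCs, V-ATPase genes were higher in SCA1 mice more often than lower, and none passed the test. The median log2 fold change was 0.14 over the 19 V-ATPase genes tested (13 higher), 0.02 over the 20 vesicle protein genes (11 higher), 0.04 over all 39 and 0.02 over all genes. The V1 subunits had a median of 0.18 (7 of 9 higher) and the synaptotagmins one of -0.11 (3 of 9 higher). With library size as the only scaling, the median of all PC genes was 0.20, with 73.6% of them higher against 52.6% in the analysis given here. On that scale 18 of 19 V-ATPase genes and 33 of 39 of all members were higher, with medians of 0.32 and 0.22. On the main scale, the V-ATPase median in the other types ran from 0.04 in granule neurons (10 of 19 higher) to -0.16 in Pvalb-Cadm1 (6 of 18). In Slc17a6.Nrgn 4 of 18 were higher (median -0.13) and in Lgi2 6 of 18 (-0.10). The vesicle protein median in the other types ran from 0.10 in Slc17a6.Sln to -0.17 in Pvalb-Rab3b.

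The 3 V-ATPase genes named by the study in PCs were looked at singly. *Atp6v0a1* (chromosome 11, 101009452 to 101063719) stood at 222, 202 and 177 CPM in SCA1 mice 1 to 3 and at 163, 146 and 122 CPM in WT mice 1 to 3. The 3 SCA1 values were all above the 3 WT values, with a log2 fold change of 0.30 ± 0.18 (SE; 95% interval -0.11 to 0.71; edgeR adjusted p = 0.919). Within batch the plain CPM difference was 0.45 in the first and 0.50 in the second on the log2 scale. *Atp6v1h* (chromosome 1, 5070018 to 5162529) stood at 89.7, 82.4 and 98.5 CPM in the SCA1 mice and at 62.9, 57.9 and 79.0 CPM in the WT mice. Its groups did not overlap either, and its log2 fold change was 0.26 ± 0.22 (95% interval -0.24 to 0.76; edgeR adjusted p = 0.999). Both separations are in plain CPM. On that scale the median log2 fold change of all PC genes was 0.20, against 0.02 on the scale of the edgeR test. Whether the groups of these genes stay apart on the latter scale was not tested.

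*Atp6v0c* (chromosome 17, 24163866 to 24169702) was highest in mouse 1 of each genotype. It stood at 336, 163 and 47.5 CPM in SCA1 mice 1 to 3 and at 204, 85.6 and 40.4 CPM in WT mice 1 to 3. The groups overlapped widely, though each SCA1 value was above that of the WT mouse of the same number. How many of all genes do so was not counted. The log2 fold change, from a fit with batch but not mouse number as a term, was 0.54 ± 0.38 (95% interval -0.31 to 1.38; edgeR adjusted p = 0.962). In granule neurons the same gene stood at 425, 313 and 102 CPM in the SCA1 mice and at 442, 193 and 87.1 CPM in the WT mice, with the same mice high and low as in PCs. Groups that did not overlap, SCA1 above, were found for 2 of the 39 members in PCs and for 12.0% of all genes.

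*Syt7* was the member of PCs that did not overlap in the other direction. Its 3 SCA1 values (325 to 369 CPM) were below its 3 WT values (388 to 416 CPM), with a log2 fold change of -0.39 ± 0.19 (95% interval -0.82 to 0.04; edgeR adjusted p = 0.815), and 2.57% of all genes had SCA1 below WT. *Sv2c*, the SV2 gene highest in PCs, gave 0.17 (edgeR unadjusted p = 0.552) and overlapped. *Syn1* stood at 116, 79.6 and 104 CPM in the SCA1 mice and at 83.00, 45.8 and 72.7 CPM in the WT mice, overlapping, with a log2 fold change of 0.39 ± 0.25 (edgeR adjusted p = 0.937). For *Sv2c* and *Syn1* too, each SCA1 value was above that of the WT mouse of the same number. Among lower-level genes *Vamp3* gave 0.59, *Syt9* -0.83, *Sv2b* -0.66 and *Syt12* -0.25, each with overlapping groups and an edgeR adjusted p of at least 0.903. In the same PC sums the granule neuron markers gave -1.11 (*Rbfox3*), -1.04 (*Cadps2*), -0.61 (*Gabra6*), -0.44 (*Fat2*) and -0.17 (*Cbln3*). The part of granule neuron RNA in the values of *Sv2b* and *Syt9*, which are high in granule neurons, was not tested.

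**Figure D4:**
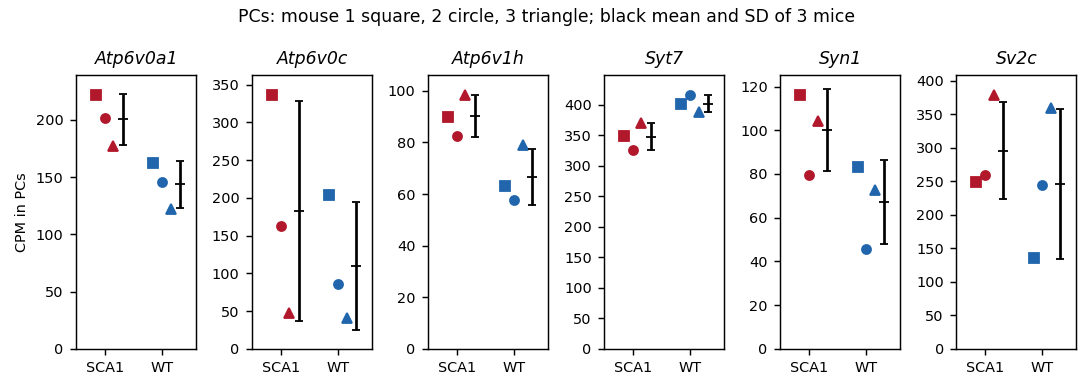
CPM in PCs of 6 genes in each mouse (squares mouse 1, circles mouse 2, triangles mouse 3; SCA1 red, WT blue), with the mean and SD of 3 mice in black. In this plain CPM, without the scaling of the edgeR test, *Atp6v0a1* and *Atp6v1h* do not overlap with SCA1 above, *Syt7* does not overlap with SCA1 below, and *Atp6v0c*, *Syn1* and *Sv2c* overlap.

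*Atp6v0a4*, the a subunit of kidney, had the smallest unadjusted p of the members in PCs, and it rested on single nuclei. Its UMIs in PCs were 18, 0 and 0 in SCA1 mice 1 to 3 and 83, 10 and 0 in WT mice 1 to 3. Of the 83 UMIs of WT mouse 1, 80 lay in 1 nucleus, and of the 18 of SCA1 mouse 1, 15 did. The log2 fold change was -2.58 ± 0.88 (95% interval -4.53 to -0.62; unadjusted p = 0.0146, edgeR adjusted p = 0.514). Without the filter on low counts *Atp6v0a4* passed (edgeR adjusted p = 0.00120), as did 1.04% of all 21377 genes. The same-strand gene *D630045J12Rik* overlaps it.

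**Figure D5:**
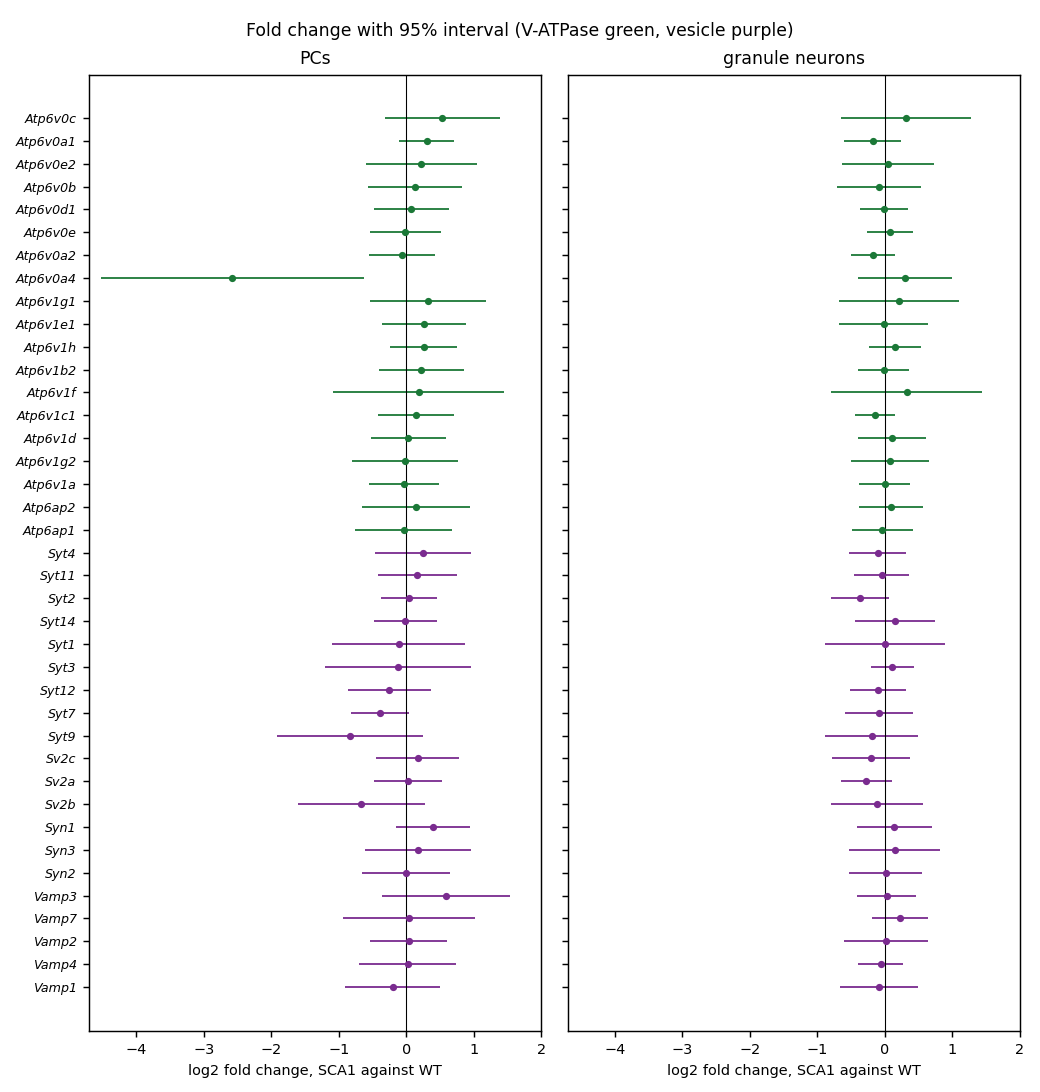
Log2 fold change of SCA1 against WT with its 95% interval for the 39 genes tested in PCs, in PCs (left) and in granule neurons (right), V-ATPase genes green and vesicle protein genes purple. All intervals but that of *Atp6v0a4* in PCs include 0, and 13 of 19 V-ATPase genes in PCs lie to the right of 0.

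In granule neurons, with far deeper sums, the genes differed little. The median log2 fold change of the 48 genes tested was -0.01, with 22 higher and 26 lower. *Syt6* stood at 12.2, 8.96 and 10.1 CPM in the SCA1 mice and at 14.9, 14.5 and 16.8 CPM in the WT mice. Its SCA1 values were all below its WT values, with a log2 fold change of -0.60 ± 0.21 (95% interval -1.11 to -0.10; unadjusted p = 0.0253, edgeR adjusted p = 1.00), and 1.04% of all genes had SCA1 below WT. *Syt2* gave -0.37 ± 0.18 and *Sv2a* -0.27 ± 0.16, with overlapping groups. *Atp6v1h* was 89.5, 86.6 and 90.6 CPM in the SCA1 mice and 80.5, 76.5 and 77.2 CPM in the WT mice, without overlap, at a log2 fold change of 0.15 ± 0.16. Groups with SCA1 above were seen for 1 of the 48 members and for 1.81% of all genes.

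The difference of the genotype effect between PCs and granule neurons was tested in a single model with mouse as a block. Of 49 members 0 passed, with DESeq2 as well, as did 0% of 16043 genes by edgeR, while DESeq2 called 0.187% of all genes. An unadjusted p under 0.05 was found for 2 of the 49 members and for 4.64% of all genes. *Atp6v0a1* gave a difference of 0.43 ± 0.19 on the log2 scale (95% interval 0.02 to 0.85; unadjusted p = 0.0430, edgeR adjusted p = 1), from log2 fold changes of 0.30 in PCs and -0.18 in granule neurons. *Atp6v0a4* gave -2.69 (edgeR unadjusted p = 0.0455), on the few UMIs described above. *Atp6v0c* gave 0.16 (95% interval -0.35 to 0.67) and *Atp6v1h* 0.07 (95% interval -0.41 to 0.54).

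The study tested single nuclei and reported *Atp6v0c*, *Atp6v0a1* and *Atp6v1h* as increased in SCA1 PCs. Its PCs also had to agree in cluster, whereas all 292 nuclei with the PC label were taken here, so the sets differ. With these nuclei as the units, *Atp6v1h* (0.45, limma-trend adjusted p = 0.0130) and *Atp6v0a1* (0.44, limma-trend adjusted p = 0.0360) were called higher in SCA1 mice. These were 2 of 52 members, with 1.07% of 21377 genes called higher. *Atp6v0c* gave 0.41 (limma-trend adjusted p = 0.0997). Nuclei of a mouse are not independent replicates, so these p-values measure the spread between nuclei more than that between mice.

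In the other 11 types no member was called, and of all genes tested 0.00917% were called in OL and 0% in each of the other 10 types. At an unadjusted p under 0.05 there were 2 of 40 members in Pvalb-Chrm2 (2.22% of all genes), 2 of 38 in Lgi2 (1.10%), 1 of 45 in Slc17a6.Nrgn (1.11%), 3 of 36 in Dcn.Nnat (2.10%) and 1 each in Pvalb-Rab3b, Pvalb-Cadm1 and Slc17a6.Sln (1.50%, 2.05% and 1.97%). There were none in Pvalb-Nefh, BG, VA and OL, where 0.939%, 1.72%, 1.01% and 0.807% of all genes did so. The genes of this kind in Pvalb-Chrm2, Lgi2, Slc17a6.Nrgn and Slc17a6.Sln were all SV2 genes.

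Groups without overlap, SCA1 above, were found for 1 of 40 members in Pvalb-Rab3b (2.48% of all genes), 2 of 40 in Pvalb-Chrm2 (3.15%), 2 of 45 in Slc17a6.Nrgn (3.17%), 2 of 25 in Slc17a6.Sln (3.35%), 1 of 42 in BG (2.96%) and 2 of 41 in OL (2.56%). They were found for 0 members in Pvalb-Nefh (1.72%), Pvalb-Cadm1 (3.05%), Lgi2 (2.67%), VA (2.68%) and Dcn.Nnat (2.91%). With SCA1 below there were 4 of 40 in Pvalb-Rab3b (2.71%), and 1 each in Pvalb-Nefh (1.97%), Slc17a6.Nrgn (2.21%) and VA (2.20%). There were 0 in Pvalb-Cadm1 (2.60%), Pvalb-Chrm2 (3.66%), Lgi2 (2.93%), Slc17a6.Sln (3.77%), BG (1.98%), OL (1.40%) and Dcn.Nnat (2.57%). The 4 genes of Pvalb-Rab3b were *Atp6v0a2*, *Atp6v1b2*, *Syt13* and *Syt16*. Most of these shares were close to those of all genes.

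*Sv2b* in Pvalb-Chrm2 stood at 127, 159 and 154 CPM in SCA1 mice 1 to 3 and at 107, 22.4 and 42.9 CPM in WT mice 1 to 3. The groups did not overlap, SCA1 above, and the log2 fold change was 1.26 ± 0.38 (unadjusted p = 0.00786, edgeR adjusted p = 1.00). Without the filter on low counts it passed (edgeR adjusted p = 0.0188), as did 0.134% of all genes. Within batch the plain CPM difference was 0.24 in the first and 2.27 in the second. In Slc17a6.Nrgn the same gene stood at 115, 111 and 100.2 CPM in the SCA1 mice and at 141, 172 and 170.4 CPM in the WT mice, with SCA1 below and a log2 fold change of -0.56 ± 0.18 (unadjusted p = 0.0153, edgeR adjusted p = 1.00). In Pvalb-Chrm2 the PC genes *Car8*, *Itpr1* and *Pcp2* gave -1.05, -0.84 and -1.09. The granule neuron markers went both ways there, with *Gabra6* at -0.36, *Fat2* at 0.62, *Cbln3* at 0.24 and *Rbfox3* at 0.13. In Slc17a6.Nrgn the PC genes gave -0.49 (*Car8*), -0.30 (*Itpr1*), -0.15 (*Pcp2*) and -0.92 (*Ppp1r17*). The granule neuron markers there gave -0.21 (*Gabra6*), 0.28 (*Fat2*), -0.19 (*Cbln3*) and -0.22 (*Rbfox3*). The part of other cells in the *Sv2b* values was not tested.

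*Sv2c* in Lgi2, a label with as few as 12 nuclei in a mouse, stood at 16.8, 7.53 and 0 CPM in the SCA1 mice and at 34.2, 67.4 and 10.0 CPM in the WT mice. The groups overlapped and the log2 fold change was -2.01 ± 0.74 (unadjusted p = 0.0182, edgeR adjusted p = 1.00). Without the filter on low counts it passed (edgeR adjusted p = 0.0204), as did 0.143% of all genes. *Sv2b* in Lgi2 gave -0.93 ± 0.38. In the same sums the PC genes gave -1.34 (*Car8*), -0.59 (*Itpr1*) and -0.20 (*Pcp2*). The granule neuron markers gave 0.61 (*Gabra6*), 0.56 (*Fat2*), -0.03 (*Cbln3*) and -0.13 (*Rbfox3*). The part of PC and granule neuron RNA in the *Sv2c* and *Sv2b* values was not tested. *Sv2c* gave 1.12 ± 0.49 in Pvalb-Chrm2 and 0.63 ± 0.29 in Slc17a6.Nrgn. The third SV2 gene, *Sv2a*, gave -0.58 ± 0.26 in Slc17a6.Sln. Outside the SV2 genes, *Syt1* in Pvalb-Cadm1 gave 0.99 ± 0.41, *Syt16* in Pvalb-Rab3b -0.55 ± 0.25, and *Syt9*, *Syt7* and *Vamp5* in Dcn.Nnat -1.31 ± 0.56, -0.99 ± 0.44 and -0.83 ± 0.38. In glia the smallest p was that of *Sv2b* in OL (0.56 ± 0.26, edgeR unadjusted p = 0.0548). *Syt10* gave -0.41 ± 0.26 in VA and *Syn3* 0.54 ± 0.26 in BG.

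A list of 80 other genes of the vesicle cycle, from vesicle transporters to SNARE regulators and V-ATPase assembly factors, was read in the same way, and 0 of them were called in any type by edgeR or DESeq2 on the sums. In PCs 66 were tested, 38 were higher and 28 lower, with a median log2 fold change of 0.04 and 1 unadjusted p under 0.05 (of all genes, 52.6% were higher and 6.65% had such a p). That gene was *Doc2b*, a calcium sensor of spontaneous release, at 63.6, 60.2 and 49.2 CPM in the SCA1 mice and at 94.1, 127 and 72.7 CPM in the WT mice. Its groups did not overlap, SCA1 below, with a log2 fold change of -0.93 ± 0.24 (unadjusted p = 0.00262, edgeR adjusted p = 0.266). It was the only gene of the list with SCA1 below (2.57% of all genes), while 4 had SCA1 above (12.0% of all genes), *Cplx1* among them. The study reported *Slc32a1*, the vesicular GABA transporter, as increased in PCs. It stood at 149.8, 126 and 56.7 CPM in the SCA1 mice and at 78.4, 85.6 and 54.8 CPM in the WT mice. These overlapped, though each SCA1 value was above that of the WT mouse of the same number. The log2 fold change was 0.39 ± 0.29 (edgeR adjusted p = 0.979). *Tbc1d24* (0.64), *Cplx1* (0.49) and *Syp* (0.38) had the smallest p of the higher genes, and *Cadps2* (-1.04) and *Oxr1* (-0.42) followed *Doc2b* among the lower ones, each at an edgeR adjusted p of at least 0.809. *Cadps2* is also a granule neuron marker used above, with a PC level of 0.0389 times that in granule neurons. The part of granule neuron RNA in its value was not tested. With single PC nuclei as the units, limma-trend called 3 of 77 genes of the list, *Doc2b* lower (-0.69, adjusted p = 5.9e-05) and *Slc32a1* (0.58, adjusted p = 0.00348) and *Syp* (0.42, adjusted p = 0.0379) higher, while 1.90% of all genes were called. As for the members, these p-values do not treat the mouse as the replicate.

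The spread of *Atp6v0c* over mouse numbers was shared by other short genes. SCA1 mouse 1 and WT mouse 1 form the first batch, and short members were higher in that batch in both genotypes. The batches also differed in the cutoff on depth. The fewest UMIs in a nucleus were 3890 (SCA1) and 3932 (WT) in the first batch, and 1000 to 1739 in the mice of the second. In granule neurons 20 of 21 members spanning under 30 kb were higher in batch 1 in each genotype, by a median of 0.76 (SCA1) and 0.88 (WT) on the log2 scale, against 0.21 and 0.07 for the 27 longer members. Of those 27, 21 (SCA1) and 19 (WT) were higher too. In PCs 18 of 18 (SCA1) and 17 of 18 (WT) short members were higher, by medians of 0.70 and 1.03, against 0.30 and 0.30 for the longer ones. Of the 20 longer ones, 17 (SCA1) and 15 (WT) were higher too. The values are from plain CPM of members, and the same shares over all genes were not computed. Across members, the difference between batches fell with the span of the gene, with Spearman's rho of -0.60 and -0.63 in granule neurons (48 genes) and -0.62 and -0.47 in PCs (38 genes). Genes of a library share its depth and preparation, so these correlations describe the libraries. Each batch holds both genotypes, 1 mouse of each in the first and 2 of each in the second.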

How the data were processed

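UMI counts of genes per nucleus were used for 6 mice, 3 SCA1 and 3 WT, together with the SingleR label and Seurat cluster of each nucleus. The authors made the deposited counts with CellRanger against mm10 with the human *ATXN1* locus added, counting introns, removed debris with DIEM (a minimum of 1000 UMIs, or 3000 in the first run), and did not normalize them. The submitters' notes name Cell Ranger 4.0.0, 5.0.1 and 6.0.1, R 4.1.0 and Seurat 4.0.4. The deposited cluster number of a nucleus is a label and was used in an alternative only.

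Counts were summed per mouse and SingleR label (at least 10 nuclei in every mouse). Levels are CPM of these sums without further scaling. Genotypes were compared with edgeR 4.0.16 (R 4.3.3; quasi-likelihood test, TMM, filterByExpr with minimum count 10 and total 15, terms batch and genotype), adjusted over all genes of a cell type at 0.05. Neither labels nor paper name the mice of each sequencing run. Batch was read from the numbering of the libraries (mouse 1 of each genotype as the first). The paper applied the 3000 UMI minimum to the samples of the first run alone. The fewest UMIs in a nucleus were 3890 in SCA1 mouse 1 and 3932 in WT mouse 1. They were 1000 to 1739 in the other mice, so the cutoff points to the same mice as the first run. No doublet caller was run. The settings tried besides were no filter, no batch term, DESeq2 1.42.0, scaling by RLE or by library size alone, the replicate block, cluster agreement, nuclei of at least 3000 UMIs, each mouse left out, and limma-trend (limma 3.58.1, scran 1.30.0, scater 1.30.1) on PC nuclei. The fits were tested on simulated data first. Same-numbered samples deviated together (correlation over 0.1 in all 3 pairs) in granule neurons, Pvalb-Nefh, Pvalb-Rab3b, Pvalb-Cadm1, Lgi2 and VA. In the other types pair 2 was under 0.1 (0.067 in PCs). Pair 1 also shares a batch. Pair 3, which like pair 2 lies within the second batch, ran from 0.428 in Lgi2 to 0.785 in granule neurons, with 0.503 in PCs. The main fit has batch and no term for these pairs. Of the unlike pairs, SCA1 mouse 3 with WT mouse 2 gave 0.386 in granule neurons, above the 0.260 of pair 2, and 0.079 in PCs. SCA1 mouse 2 with WT mouse 3 gave -0.195 and -0.074.

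Members and lists were chosen with earlier results of these data known. Genes were named by rule, as those named by the study in PCs, those called, those of smallest p per direction (5 in PCs and in granule neurons, 2 elsewhere), the 3 of highest level per role and the 8 of largest ratio of highest to second type. Others were named after their values were seen, such as *Syt7*, *Syt9*, *Syt14*, *Atp6v1b1* and *Vamp5* in Dcn.Nnat. Gene positions are from GENCODE vM21 and start regions from RefSeq, GRCm38.p6, which held windows for 40 of the 56 genes. Sums and plots were made in Python 3.11.15 with pandas 2.3.3, numpy 2.4.6, matplotlib 3.10.9 and scipy 1.17.1. The mice are separate animals, and 3 against 3 limits the precision. The granule neuron markers were chosen as a measure of free RNA from granule neurons, and the ratios over genes with 10 CPM in any type were added, after the values were seen. Another marker gene is not reported here.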

Additional observations from a re-analysis of the deposited data

Results flagged for a closer look

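*Sv2b* had opposite signs in a pair of neuronal types. Its log2 fold change of SCA1 against WT was 1.26 in Pvalb-Chrm2, where all 3 SCA1 mice were above all 3 WT mice, and -0.56 in Slc17a6.Nrgn, where all 3 were below. The difference between the types was not tested, neither change passed adjustment (edgeR adjusted p = 1.00 in both, and 0.0188 in Pvalb-Chrm2 without the filter on low counts), and only 14.4% of Pvalb-Chrm2 nuclei shared the leading label of their cluster.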

How the results depend on the processing

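The count of members called was 0 in all 13 types and stayed 0 under RLE factors, library size only, DESeq2, no batch term, the replicate block (0 called in every type), nuclei of at least 3000 UMIs, cluster agreement and each mouse left out. Without the filter on low counts it was 1 in PCs (*Atp6v0a4*), 1 in Pvalb-Chrm2 (*Sv2b*) and 1 in Lgi2 (*Sv2c*) by edgeR, where 1.04%, 0.134% and 0.143% of all genes were called, and limma-trend on PC nuclei gave 2. The cause was not tested. The cluster-agreement alternative could not be had for Pvalb-Rab3b. In granule neurons, leaving out 1 mouse gave log2 fold changes of -0.038 (without SCA1 mouse 3) to 0.55 for *Atp6v0a4*, -0.060 (without SCA1 mouse 2) to 0.65 for *Vamp5* and -0.134 (without SCA1 mouse 2) to 0.54 for *Vamp8*, so the direction of these 3 rests on 1 mouse. The number of genes highest in a neuronal type was 34 of 47 and ranged from 31 to 37 under the alternatives. Scaling by TMM over all sums raised *Sv2c* in PCs to 382 CPM and *Syt12* in granule neurons to 76.8 CPM. In PCs 17 members had too few UMIs to be tested, and the 95% interval of *Atp6v0c* reached from -0.31 to 1.38. Intervals for pooled labels cover counting error only.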

Other observations

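The 11 labels with fewer than 10 nuclei in some mouse were left out of the comparisons, and their pooled counts are given with exact Poisson intervals (95%) and no test. In 125 nuclei labelled microglia, 14 of the 19 V-ATPase genes with 10 CPM in some type stood higher than the mean of any of the 13 types compared (24.0% of all 13702 genes did), and for 8 of them the lower limit was also higher (10.7% of all genes). Among these were *Atp6v0a1* at 422 CPM (372 to 476), *Atp6v0b* at 524 CPM (468 to 584), *Atp6v0c* at 327 CPM, *Atp6v1a* at 194 CPM, *Atp6v1b2* at 217 CPM and *Atp6v1c1* at 137 CPM (109.8 to 169.96). These pooled values are set against means over mice that differ widely, and single mice reached 600 CPM of *Atp6v0c* in Slc17a6.Sln and 497 CPM of *Atp6v0b* in Lgi2. Of the 28 vesicle protein genes, 4 stood higher, and the lower limit did so for *Vamp8* alone (40.4 CPM). Microglia degrade what they engulf in acid lysosomes. The same pool held *Gabra6* at 147 CPM and *Ttr* at 169.8 CPM, genes of granule neurons and choroid plexus.

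In 83 nuclei labelled choroid plexus, of which 49.4% shared the leading label of their cluster and where *Ttr* stood at 6685 CPM, *Syt10* reached 363 CPM (325 to 403), against 213 ± 12.7 CPM in BG. In 89 nuclei of the endothelial stalk label *Syt1* stood at 425 CPM (384 to 469), beside *Gabra6* at 180.2 CPM. *Vamp8* and *Vamp5* each stood at 51.3 CPM (37.7 to 68.3) there, against means of 24.8 and 72.5 CPM in Dcn.Nnat.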
